A study of Oncorhynchus mykiss with 69 samples.

Results

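Described here is the response of RTL-W1, a cell line from rainbow trout liver, to the 3 lowest of 5 methylmercury concentrations. Its members were chosen by label: 8 of the series' 69 RNA sequencing libraries, namely 2 at each of the table concentrations 0.25, 2.5 and 25 and 2 controls of the same line without methylmercury. In the sample titles these concentrations read 0.001, 0.01 and 0.1, a constant factor of 250, and no unit is stated. Cells of all groups grew in L-15 medium with fetal bovine serum and antibiotics and were exposed for 24 h. The same line was also exposed to 125 and 250, and the gill and gut lines RTgill-W1 and RTgutCC, as the labels spell them, to the same series. The labels do not say whether both libraries of a pair came from separate cultures, so p-values measure the spread between these samples, which may be technical. The deposited table allowed the mean of each pair to be recovered but not the 2 single libraries, so every level below is a pair mean and its error is an SE pooled over the 12 methylmercury libraries of the line. No counts were given. A pair is described below as listed at 0 where its recovered mean equals the lowest value of its group. This was read as 0 counts in both libraries.

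Methylmercury is an organic mercury compound that binds thiol groups, those of glutathione and of protein cysteines among them. In vertebrates the protein Keap1 holds the transcription factor Nrf2 at a low level by marking it for breakdown. Modification of Keap1 cysteines releases Nrf2, which raises genes for the making, recycling and use of glutathione, for NADPH supply and for export of conjugates.

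The liver table held 23203 genes, of which 5397 had a gene symbol and 17806 only a locus number. Locus numbers are given without a role. Gene lists were matched by symbol, so genes with only a locus number belong to none of them. Any copies of list members among these genes are not counted. Estimated depth in these genes was 10.3 M reads per library at 0.25, 9.21 M at 2.5 and 11.2 M at 25, against 9.33 M in control. The median gene lay -0.01 from control at 0.25 and 0.00 at 2.5 on the log2 scale, and -0.11 at 25. Differences below are therefore log2 differences relative to the median gene, and a gene is called changed where the moderated test gave a Benjamini-Hochberg adjusted p under 0.05 over all genes. In the hepatocyte list 9 markers were measured, and their summed level was 175 CPM (counts per 1 M estimated reads) at 0.25, 168 at 2.5 and 119 at 25, against 166 in control. Transferrin tf made up 1533 of the 1550 summed reads in control and differed by -0.41 ± 0.219 at 25. The median difference of the list at 25 was 0.09, with 5 of 9 above the median gene. The 8 mesenchymal markers summed to 48412, 49779 and 47446 CPM at these concentrations and to 49082 in control. Most of that sum was 2 collagen genes, col1a2 with 263445 and col1a1b with 189875 of the 457946 summed reads in control. The sum therefore says little on the other members, such as vim with 102 reads in control. Of the hepatocyte markers, the transferrin gene tfa and the ceruloplasmin gene cp were listed at 0 in control, while transferrin tf had a log2 level of 12.48 there. The 7 other epithelial markers summed to 3554 to 3887 and the 3 blood cell ones to 3.38 to 4.56 CPM. In control krt18b made up 33869 of the 34068 summed epithelial reads. The 12 endothelial markers summed to 58.2 CPM at 0.25, 59.2 at 2.5 and 43.6 at 25, against 66.9 CPM in control. Most of that sum was tek, with 519 of the 624 summed reads in control and a difference of -0.73 ± 0.431 at 25. The median difference of the endothelial list at 25 was 0.15, with 7 of 12 above the median gene. The part of these shifts in the results below was not tested. In bulk samples such as these, fewer cells of a type and less RNA per cell cannot be told apart.

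At the lowest 2 concentrations few genes were called and most of those were listed at 0 in a pair. At 0.25, 8 genes were called, 2 higher and 6 lower, which is 0.0345% of the genes tested. At 2.5, 10 genes were called, 5 in each direction, or 0.0431%. At 25, 16 genes were called, 12 higher and 4 lower, or 0.069%. Of these called genes, 7 of 8, 9 of 10 and 8 of 16 were listed at 0 in both libraries of at least 1 low pair, against 3.81% of all genes in the table. The 8 genes called at 25 that had reads in every low pair were all higher than control, and glutathione reductase and a Keap1 gene were among them. By unadjusted p under 0.05 in the moderated test, 462 of 23203 genes were higher and 313 lower at 0.25. At 2.5 these counts were 513 and 341, and at 25 they were 963 and 506. The 3 comparisons share the control pair.

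**Figure D1:**
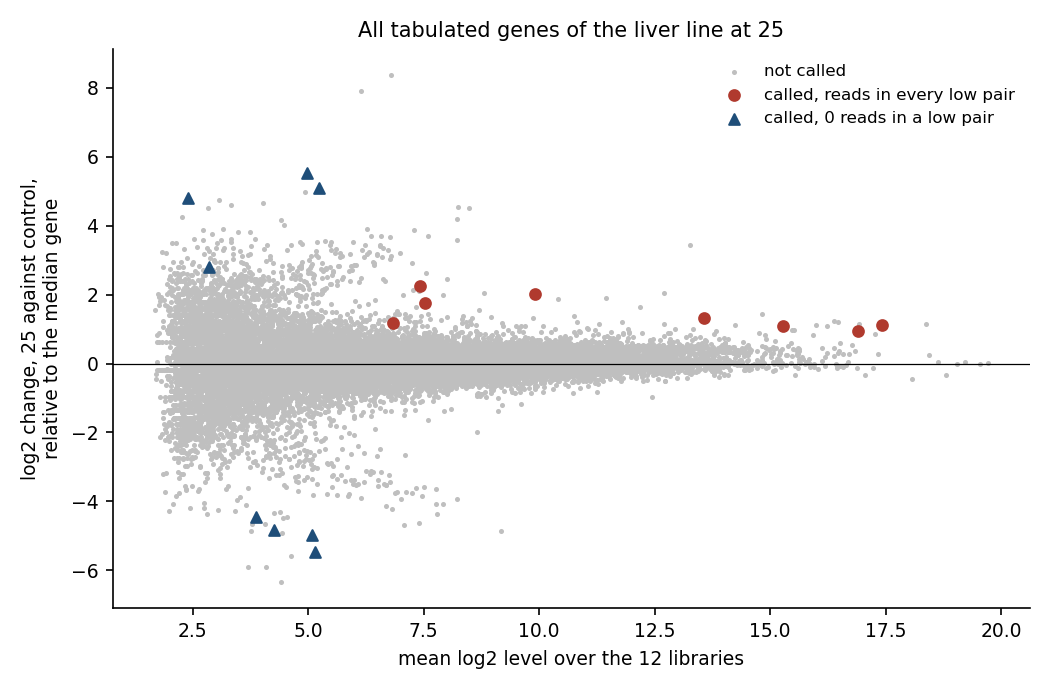
Log2 difference at 25 against control relative to the median gene (vertical axis) against the mean log2 level over the 12 methylmercury libraries (horizontal axis), 1 point per gene. The 8 called genes with reads in every low pair (red circles) lie between 0.95 and 2.24 above the median gene, with keap1a, gsr and 3 genes known by locus number to the right, where most genes lie close to 0. The 8 called genes listed at 0 in a low pair (blue triangles) lie at low levels and on both sides.

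The gene gsr encodes glutathione reductase, which uses NADPH to turn oxidised glutathione back into its reduced form. Its log2 level was 13.998 in control, 13.992 at 0.25, 14.016 at 2.5 and 14.975 at 25. Only the pair at 25 stood apart. Relative to the median gene it was 0.00 from control at 0.25 and 0.02 at 2.5, and it rose by 1.09 ± 0.10 (SE, 2 libraries a group) at 25, with an adjusted p of 0.021 in the moderated test. At 125 and 250 the same gene lay 3.41 and 4.48 above control. In the contrast that leaves the control pair out, gsr at 25 was 1.08 ± 0.0865 above the mean of 0.25 and 2.5, with an adjusted p of 0.0139 in the moderated test. That contrast reuses the pair at 25 and the same variance, so for genes chosen by their value at 25 it is not independent support.

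One of 2 measured genes with a Keap1 symbol, keap1a, stood at a log2 level of 7.75 in control, 7.91 at 0.25, 8.32 at 2.5 and 9.65 at 25. The levels followed the order of concentration. Its difference from control was 0.17 at 0.25, 0.57 at 2.5 and 2.01 at 25, each ± 0.196 (SE), and only the last passed the moderated test, with an adjusted p of 0.0264. Against the mean of 0.25 and 2.5 it rose by 1.64 ± 0.17 at 25, with an adjusted p of 0.0432 in the moderated test. It reached 5.00 at 125 and 6.47 at 250. The other gene, keap1b, had a log2 level of 12.68 in control, 12.70 at 0.25, 12.72 at 2.5 and 13.16 at 25. Its difference at 25 was 0.59 ± 0.111, with an adjusted p of 0.286 in the moderated test, so it was not called.

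3 genes known only by locus number had the same course as gsr. LOC110537950 stood at a log2 level of 11.982 in control, 11.999 at 0.25, 12.166 at 2.5 and 13.193 at 25, and rose by 1.32 ± 0.141 at 25 (moderated test, adjusted p = 0.0424). LOC110531622 stood at 15.85, 15.86, 15.92 and 16.69 in the same order, and rose by 0.95 ± 0.103 (moderated test, adjusted p = 0.0434). LOC110537946 stood at 16.24, 16.25, 16.32 and 17.24, and rose by 1.11 ± 0.123 (moderated test, adjusted p = 0.0483). In all 3 the pairs at 0.25 and 2.5 lay within 0.19 of control and the pair at 25 stood apart. In the contrast without the control pair these 3 genes were called as well, each with an adjusted p of 0.041 in the moderated test. It shares the pair at 25 by which they were chosen.

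LOC110537950 and LOC110537946 are neighbours in the trout annotation. By gene order in the USDA_OmykA_1.1 assembly, 9 other measured genes lie between them, and their differences at 25 ran from 0.08 to 1.24 with a median of 1.1. The longer run of 22 measured genes behind aldh16a1, which holds both, had a median difference of -0.03 at 0.25, 0.10 at 2.5 and 0.99 at 25. The run was bounded by genes raised at 250 against the same control pair, so its members were chosen by their response in this line. Values of the run at 25 are therefore not independent of that choice. At 25, 21 of its 22 genes lay above the median gene, and the run took 3.10% of all estimated reads, against 1.56% in control. Only LOC110537950 and LOC110537946 were called among them. How far reads were shared between near-identical copies in this run could not be read from the table, so the values of single members are uncertain.

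3 further genes were called at 25 with another course. The gene si:dkey-45d16.4, which has no described role in the files, stood at a log2 level of 6.198 in control, 6.740 at 0.25, 7.996 at 2.5 and 8.325 at 25. It rose by 1.80 ± 0.148 at 2.5 (moderated test, adjusted p = 0.0198) and by 2.24 at 25 (adjusted p = 0.00535). Among the genes with reads in every low pair it was the only one called at 2.5. At 125 and 250 its difference was 1.97 and 2.16, so it did not exceed its value at 25. LOC110485947 ran close to it, with 6.65 in control, 7.14 at 0.25, 8.01 at 2.5 and 8.29 at 25. It lay 1.37 ± 0.166 above control at 2.5 (moderated test, adjusted p = 0.118) and rose by 1.75 at 25 (adjusted p = 0.0242), with 1.71 at 125 and 1.24 at 250. LOC118940387 had 6.22 in control, 6.95 at 0.25, 6.61 at 2.5 and 7.28 at 25, and rose by 1.17 ± 0.123 at 25 (moderated test, adjusted p = 0.0397). Against the mean of 0.25 and 2.5 none of these 3 was called at 25, with adjusted p-values of 0.0659, 0.204 and 0.195 in the moderated test.

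**Figure D2:**
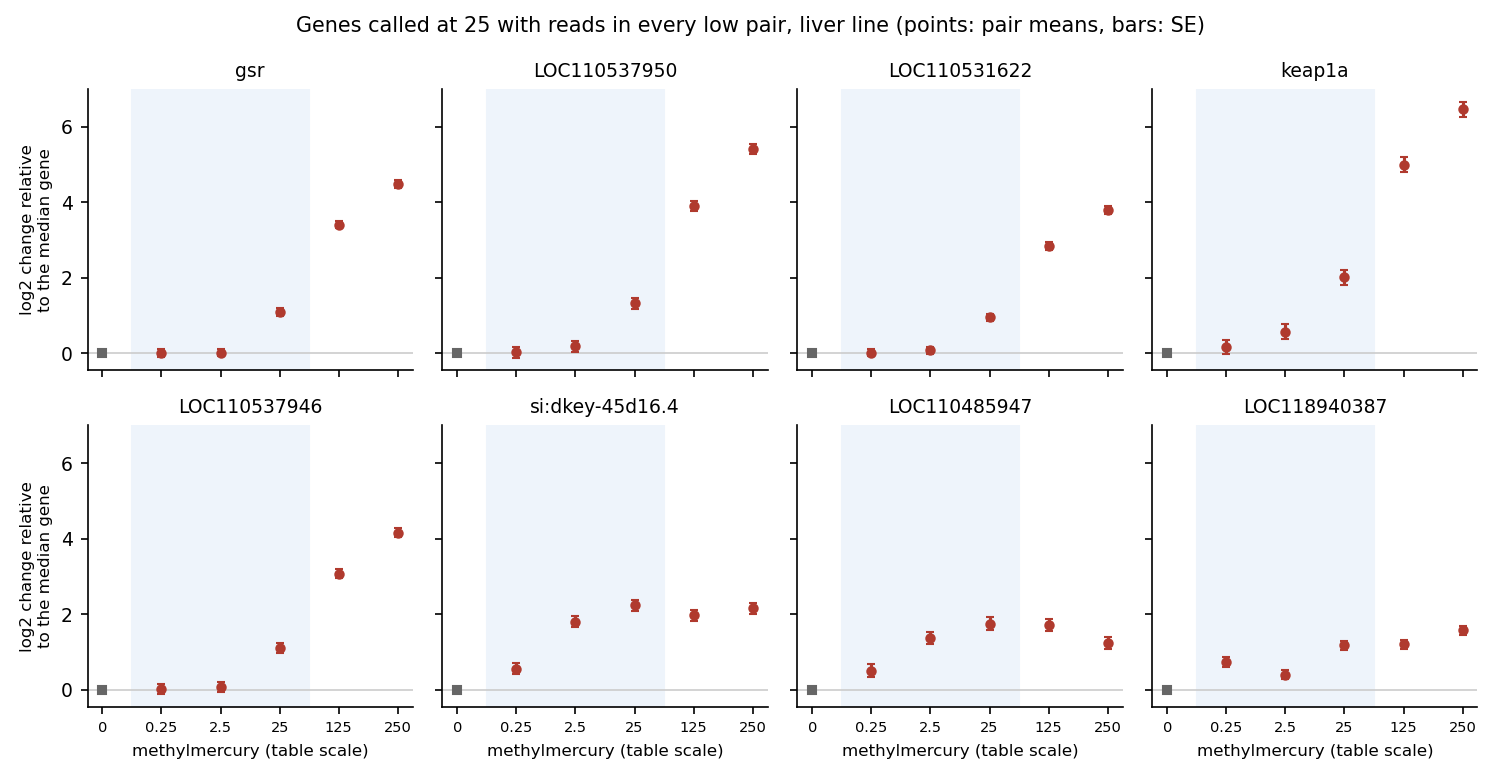
Log2 difference from control relative to the median gene at each methylmercury concentration for the 8 genes called at 25 with reads in every low pair. Points are means of 2 libraries, bars are SE, the grey square is the control at 0, the shaded span holds the 3 low concentrations, and concentrations are spaced evenly, not to scale. In 7 of 8 genes the points rise in the order 0.25, 2.5 and 25, an order that the choice of genes by their value at 25 favours. The points of si:dkey-45d16.4 and LOC110485947 are already above 1.3 at 2.5.

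Of these 8 genes, 7 had their 3 low differences in the order of concentration, and 4 lay within 0.2 of control at both 0.25 and 2.5. All 8 were chosen for their value at 25, so this order rests largely on 2.5 against 0.25. In gsr, LOC110531622 and LOC110537946 the values at 0.25 and 2.5 differed by less than the SE. In 6 of 8, both 125 and 250 were higher than 25. Their calls at 25 rest on small variances. With each gene's variance raised to at least the median of the table, a residual SD of 0.310, none of the 8 was called and the count at 25 was 7. With all genes listed at 0 in a low pair left out, an alternative chosen after seeing the data, only si:dkey-45d16.4 was called at 25 (moderated test, adjusted p = 0.0206), and gsr and keap1a had an adjusted p of 0.0762.

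The Nrf2 and glutathione list held 21 measured genes, all matched by symbol. Their median difference was 0.01 at 0.25, 0.04 at 2.5 and 0.44 at 25, and it was 1.84 at 125 and 2.65 at 250. At 25, 2 of the 21, gsr and keap1a, were called higher, against 0.0517% of all genes, and none lower. By unadjusted p under 0.05, 10 of 21 were higher and none lower, against 4.15% of all genes higher and 2.18% lower. Above the median gene lay 16 of 21, and 14 of 21 were above control when the deposited values were not centred.

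Synthesis of glutathione begins with glutamate-cysteine ligase, whose catalytic subunit is encoded by gclc. Its log2 level was 11.70 in control, 11.55 at 0.25, 11.52 at 2.5 and 12.47 at 25, and its difference at 25 was 0.88 ± 0.131 (moderated test, adjusted p = 0.148). The second enzyme, glutathione synthetase gss, differed by 0.42 ± 0.122 (adjusted p = 0.643). chac1, an enzyme that breaks glutathione down, differed by 0.59 ± 0.234 (adjusted p = 0.779). In none of these 3 genes did the pair at 0.25 or 2.5 exceed control by more than 0.03.

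NADPH for glutathione reductase comes in part from the pentose phosphate pathway, to which pgd belongs. pgd differed by 0.83 ± 0.152 at 25 (moderated test, adjusted p = 0.281), and by 0.06 and 0.07 at 0.25 and 2.5. The pair at 25 lay apart from the other 3, and the gene was not called.

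Among genes for the use or export of glutathione or for the removal of peroxides the values were mixed. abcc2, a pump for glutathione conjugates, had a log2 level of 10.43 in control, 10.34 at 0.25, 10.53 at 2.5 and 11.33 at 25. Its difference at 25 was 1.01 ± 0.131 with an adjusted p of 0.0925 in the moderated test, so it lay just outside the threshold. gsto1, an omega-class glutathione transferase, had 11.890 in control, 11.904 at 0.25, 12.001 at 2.5 and 12.489 at 25, and differed by 0.71 ± 0.111 at 25 (moderated test, adjusted p = 0.167). The peroxiredoxin prdx1 differed by 0.44 ± 0.145 at 25 (adjusted p = 0.736). The glutathione peroxidase gpx1 differed by -0.26 ± 0.244 at 25. The microsomal glutathione transferase mgst1.1 differed by 1.83 at 0.25, 1.73 at 2.5 and 0.38 at 25, each ± 0.719.

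Other members showed no such difference or a large error. sqstm1, the autophagy receptor that binds Keap1, differed by 0.25 ± 0.207 at 25. The haem oxygenase gene hmox1a, at a control log2 level of 5.65, differed by 1.19 at 0.25, 0.69 at 2.5 and 1.33 at 25, each ± 0.581, so its order across concentrations cannot be read. The quinone reductase nqo1 differed by 0.05 ± 0.335 at 25 and catalase cat by -0.24 ± 0.295. The microsomal transferase mgst3b differed by -0.33 ± 0.155 and the ferritin heavy chain fth1b by -0.34 ± 0.242. None of these 6 was called at a low concentration.

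**Figure D3:**
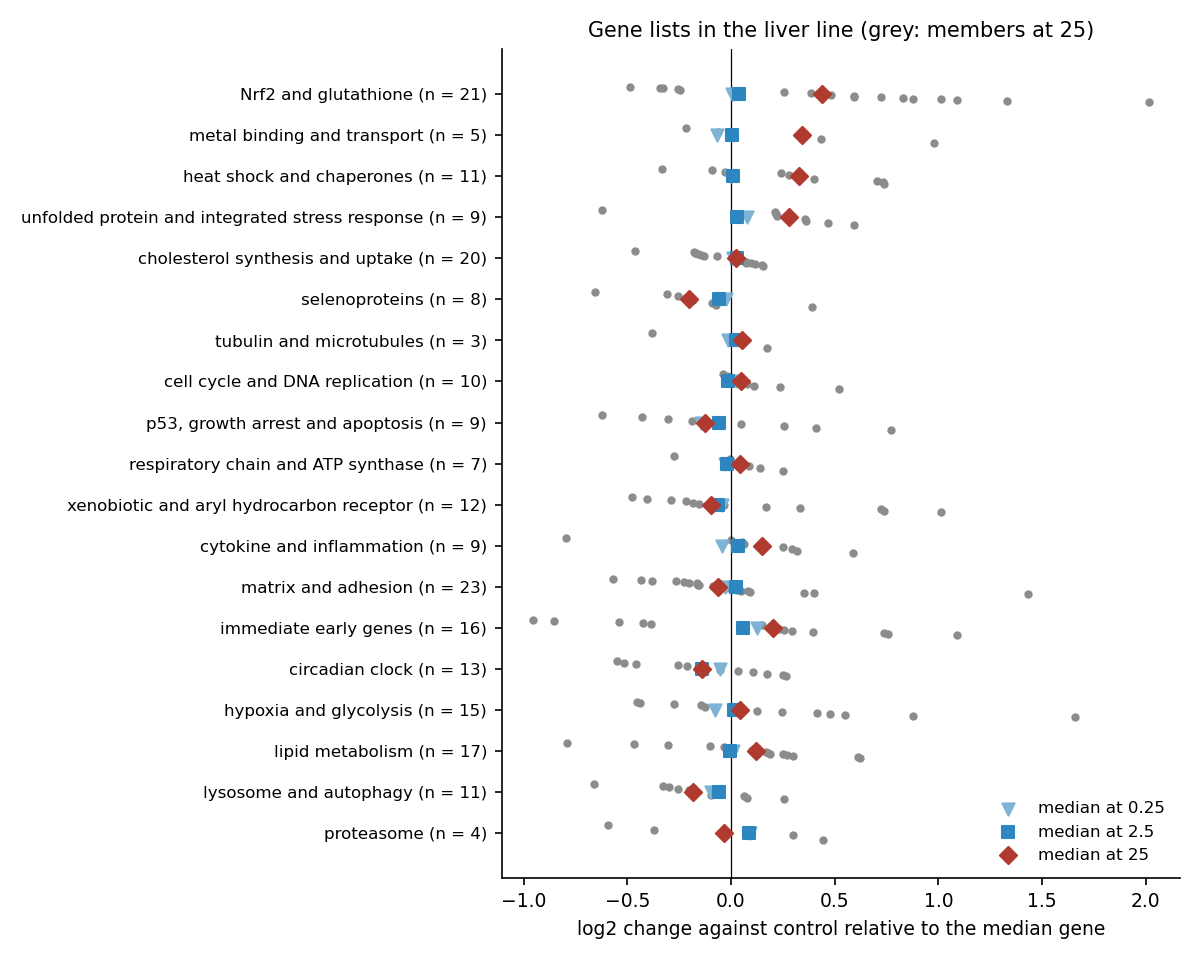
Log2 difference from control relative to the median gene for the members of 19 gene lists in the liver line. Grey points are members at 25, and coloured symbols are list medians at 0.25, 2.5 and 25. The Nrf2 and glutathione list has the highest median at 25, 0.44, and reaches 2.01 with keap1a, while the medians at 0.25 and 2.5 lie near 0.

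In the other 18 pathway lists no member was called at a low concentration, by trend or over the 4 groups. Median differences at 25 ran from -0.20 in the selenoproteins to 0.34 in metal binding and transport, against 0 for the median gene. Among 5 metal genes, metallothionein mt2 differed by -0.06 ± 0.247, the zinc importer slc39a10 by 0.44 ± 0.164 and the iron exporter slc40a1 by 0.34 ± 0.193 at 25. Thus mt2 lay close to the median gene, and none of the 5 was called.

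The 11 heat shock and chaperone genes had a median of 0.33 at 25, after 0.00 at 0.25 and 0.01 at 2.5. The inducible Hsp70 gene hspa1b differed by 0.74 ± 0.348 and the co-chaperone bag3 by 0.70 ± 0.474. The constitutive hspa8, at a log2 level of 18.25 in control, differed by 0.24 ± 0.105. By unadjusted p under 0.05, 0 of 11 were higher at 25 in the moderated test, against 4.15% of all genes. The 9 genes of the unfolded protein and integrated stress response had a median of 0.28. Among them psat1 of serine synthesis differed by 0.47 ± 0.165 and the transcription factor atf3 by 0.21 ± 0.145. By unadjusted p under 0.05 in the moderated test, 2 of these 9 were higher at 25 and 0 lower. They were psat1 and chac1, and chac1 is also in the Nrf2 and glutathione list. In the proteasome list 2 of 4, psmd1 and psme3, were higher by the same measure and 0 lower. The other 2 members lay below the median gene, psmb9a at -0.59 ± 0.532 and psmb8a at -0.37 ± 0.293, and the list median was -0.03.

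Among 16 immediate early genes, 2 were higher and 1 lower by unadjusted p under 0.05 at 25, against 4.15% and 2.18% of all genes. csrnp1b differed by 0.74 ± 0.197 and the small Maf gene maff by 0.76 ± 0.301, while the MAP kinase phosphatase dusp2 differed by -0.85 ± 0.217. The aldolase gene aldocb of the hypoxia and glycolysis list differed by 0.55 ± 0.162, and gadd45ab of the growth arrest list by 0.77 ± 0.306. Adjusted p-values of these 5 genes at 25 ran from 0.582 to 0.781 in the moderated test. The 20 cholesterol genes had a median of 0.02 at 25 and the 10 cell cycle genes one of 0.05, so neither list stood off the median gene at these concentrations.

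A second set of called genes switched between reads and 0 from 1 pair to the next. The gene wnk4a, a kinase that in mammals controls ion transport, was listed at 0 in control and had 17.6 estimated reads per library at 0.25, 19.0 at 2.5 and 18.9 at 25. It was called at all 3 concentrations, with adjusted p-values of 0.000392, 0.000549 and 0.000363 in the moderated test. LOC110505721 was also listed at 0 in control and had 16.6, 14.5 and 25.9 reads at 0.25, 2.5 and 25 (moderated test, adjusted p = 0.0245, 0.0227 and 0.0133). The levels of both genes did not follow the order of concentration. LOC110513528, also listed at 0 in control, had 2.15, 2.64 and 3.47 reads at 0.25, 2.5 and 25, and was called at 2.5 and 25 (moderated test, adjusted p = 0.0227 and 0.0171). The contrast without the control pair gave wnk4a a difference of -0.07 ± 0.182 at 25, with an adjusted p of 0.991 in the moderated test, and LOC110505721 an adjusted p of 0.901.

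At 0.25 the adhesion receptor gene adgrv1, known in mammals from hair cells and photoreceptors, was listed at 0, while it had 118 estimated reads in control, 120 at 2.5 and 99.9 at 25. Its adjusted p at 0.25 was 1.75e-05 in the moderated test, and at 25 it was 0.793. 3 genes known by locus number were likewise listed at 0 at 0.25. LOC110522717 had 32.5 reads in control, 21.9 at 2.5 and 31.0 at 25. LOC110513305 had 9.89, 4.22 and 9.32 reads, and LOC110533319 had 9.95, 8.37 and 9.81 reads, in the same order. Each had an adjusted p of 0.00893 in the moderated test at 0.25. LOC110490121, called at 0.25 with reads in every low pair, had a log2 level of 9.09 in control, 6.30 at 0.25, 9.00 at 2.5 and 8.62 at 25. It fell by 2.78 ± 0.19 at 0.25 (moderated test, adjusted p = 0.00893). At 125 and 250 it again lay below control, by -0.98 and -1.76 (moderated test, adjusted p = 0.02 and 0.000652). In all 5 genes the pair at 0.25 was the lowest of the low pairs, and LOC110513305 also lay -1.12 ± 0.332 from control at 2.5, where it was not called. The long non-coding RNA gene LOC110525025 was called at 0.25 on fewer reads, listed at 0 there with 1 read in control, 3 at 2.5 and 3.47 at 25 (moderated test, adjusted p = 0.0456).

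At 2.5 the gene robo2, a receptor for Slit guidance proteins, was listed at 0, against 28.9 estimated reads in control, 30.1 at 0.25 and 41.8 at 25 (moderated test, adjusted p = 0.0198 at 2.5). LOC110499311 was listed at 0 there too, against 19.2, 17.4 and 29.2 reads in control and at 0.25 and 25 (adjusted p = 0.0382). LOC118941430 was listed at 0 at 2.5 as well, and had 10.1 reads in control, 11.8 at 0.25 and 6.53 at 25 (adjusted p = 0.0198). LOC110511681, with the same adjusted p, had 8.10 reads in control, 4.44 at 0.25 and 6.57 at 25. The ribosomal RNA gene LOC118962860 had 5.73 reads at 2.5 and was listed at 0 in control, at 0.25 and at 25 (moderated test, adjusted p = 0.0227). Among the low pairs, that at 2.5 stood off in each of these genes, and LOC118962860 also had 3.37 reads at 250.

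At 25 the gene antxr1b, in mammals a cell surface receptor for anthrax toxin, was listed at 0. It had 19.1 estimated reads in control, 23.9 at 0.25, 25.8 at 2.5, 14.5 at 125 and 10.96 at 250, with an adjusted p of 0.0101 at 25 in the moderated test. si:ch73-206d17.1 was listed at 0 at 25 as well, against 13.4, 24.8 and 22.5 reads in control and at 0.25 and 2.5 (adjusted p = 0.00178), and had 15.1 reads at 125. LOC110503044 was listed at 0 at 25 and at 250, with 12.7 reads at 125 between them (adjusted p = 0.021 at 25). LOC118944714 was listed at 0 at both 2.5 and 25, with 11.99 reads in control, 18.3 at 0.25 and 20.4 at 125, and was called at 2.5 and at 25 (moderated test, adjusted p = 0.0304 and 0.021). LOC110490359 was listed at 0 in control, at 0.25, at 2.5 and at 250, and had 15.5 reads at 25 and 10.99 at 125 (moderated test, adjusted p = 0.000363 at 25). In antxr1b, si:ch73-206d17.1, LOC110503044 and LOC118944714 reads were thus present again at 125.

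**Figure D4:**
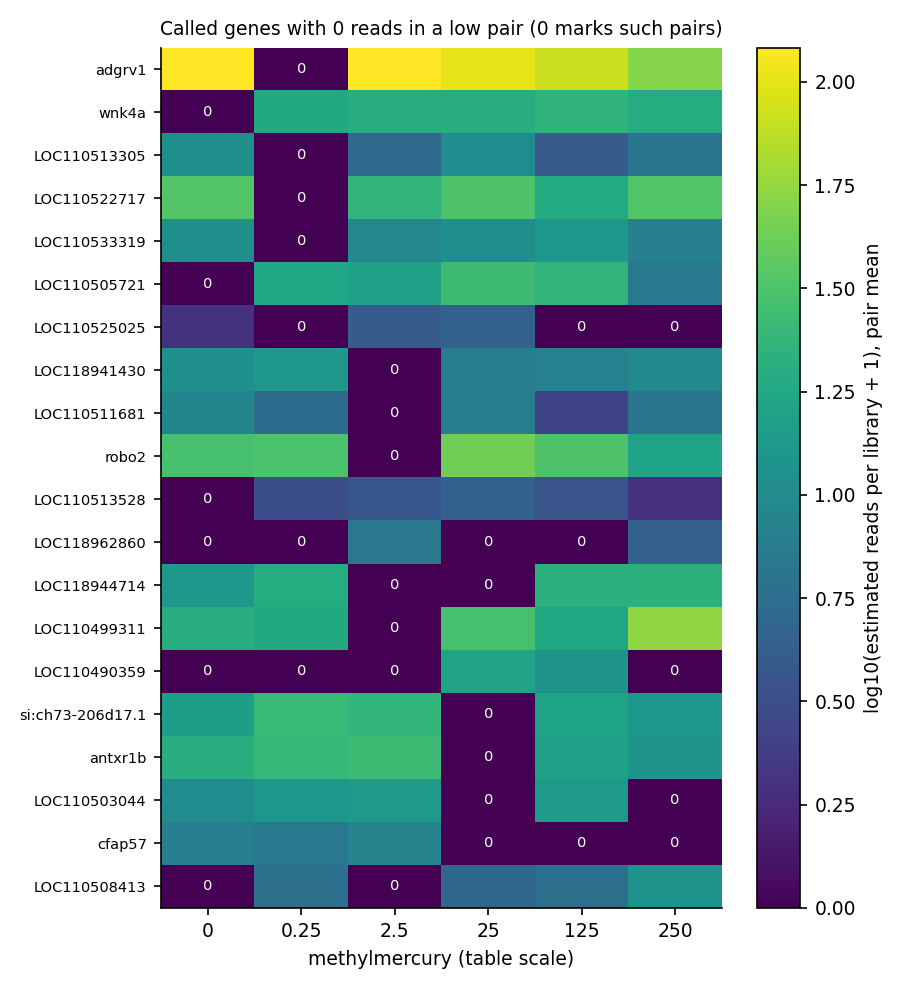
Estimated reads per library, as log10 of the pair mean plus 1, for the genes called in any of the low comparisons that were listed at 0 in a low pair. Columns are concentrations in order, and 0 marks a pair listed at 0 in both libraries. The zeros fall in single pairs in most genes, such as 0.25 in adgrv1, control in wnk4a and 25 in antxr1b.

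Zeros of this kind were spread over the 4 low groups. Genes listed at 0 in a single low pair with at least 10 estimated reads in each of the other 3 numbered 3 at 0.25, 4 at 2.5 and 3 at 25, and 3 in control. At 0.25 these were adgrv1, LOC110522717 and LOC110499540, and in control wnk4a, LOC110505721 and tmem30b. Since the table holds no single libraries, whether a listed 0 is an estimate that failed or a transcript without reads could not be read from it. Such a pair has no spread of reads between its libraries, so it can lower the pooled SE of its gene. The SE was 0.19 for LOC110490359 and 0.171 for LOC110525025, against a median residual SD of 0.310. With the variance raised to at least the median, LOC110490359 was still called at 25, and LOC110525025 was not called at 0.25.

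The 4 low groups were also tested together. These tests reuse the same pairs and variances as the comparisons against control, so they are not independent of those calls. The F-test called 24 genes, or 0.103% of those tested, and 19 of them were listed at 0 in a low pair. The other 5 were gsr, keap1a, si:dkey-45d16.4 and LOC110485947, highest at 25, and LOC110490121, lowest at 0.25. The trend over control, 0.25, 2.5 and 25 called 15 genes, or 0.0646%, of which 11 were higher and 4 lower. Its 5 genes with reads in every low pair were si:dkey-45d16.4, LOC110485947, keap1a, gsr and LOC110537950, and all 5 had a positive slope. The fitted linear slopes per step were 0.80 ± 0.0468, 0.61 ± 0.0525, 0.65 ± 0.062, 0.33 ± 0.0316 and 0.41 ± 0.0446 on the log2 scale, in that order. A slope does not mean a rise at each step. In gsr and LOC110537950 the pair at 25 made up most of it, with differences from control of only 0.02 and 0.19 at 2.5. Against the mean of 0.25 and 2.5, 12 genes were called at 25, or 0.0517%, and the 5 with reads in every low pair were gsr, keap1a, LOC110537950, LOC110531622 and LOC110537946. The cilium gene cfap57 was called there too, with 5.92 reads at 0.25 and 7.58 at 2.5, and listed at 0 at 25, 125 and 250. LOC110508413, called over the 4 groups, was listed at 0 in control and at 2.5 and had 4.91 reads at 0.25 and 3.89 at 25.

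Genes nearest the threshold at 25 differed in size and direction. Just inside it lay LOC110531622 and LOC110537946, with adjusted p-values of 0.0434 and 0.0483 in the moderated test. Just outside lay LOC110508413, cfap57 and LOC100136293, with 0.0764, 0.0779 and 0.0793 in the same test. LOC110508413 differed by 2.95 ± 0.354 and cfap57 by -4.03 ± 0.489, and both were listed at 0 in a low pair. LOC100136293 differed by 1.16 ± 0.142 and lies between LOC110537950 and LOC110537946 in the gene order. Further genes with a symbol and a small p were slc4a5a, a bicarbonate cotransporter, at 2.69 ± 0.442, the endocytic receptor cubn at 1.08 ± 0.165 and endou2 at 1.67 ± 0.283, none of them called.

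The same concentration was compared across lines, each against its own control. At 25, 84 of 22579 genes were called in gill, or 0.372%, and 216 of 21859 in gut, or 0.988%, beside the 16 of 23203 in liver. Of the 16 genes called in liver, 14 were measured in gill and 12 in gut, and 11 had the same direction in each. Called in liver, gill and gut alike were 6 genes, namely gsr, keap1a, LOC110537950, LOC110531622, LOC110537946 and si:dkey-45d16.4. Of the 16, none of those listed at 0 in a low liver pair was called at 25 in another line where it was measured. All genes of the 16 that were not measured in gill or gut were of this kind, so they could not be compared there. Among the measured ones the SE ran from 0.151 (LOC110505721) to 2.42 (LOC110490359) in gill. In gut it ran from 1.09 (wnk4a) to 2.32 (LOC110490359), so most of these comparisons were imprecise.

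For gsr the difference at 25 was 1.09 ± 0.10 in liver, against 1.33 ± 0.129 in gill and 0.83 ± 0.0901 in gut. For keap1a it was 2.01 ± 0.196 in liver, against 1.51 ± 0.183 in gill and 1.39 ± 0.134 in gut. Liver minus gill was 0.50 ± 0.268 and liver minus gut 0.62 ± 0.237 for keap1a, with adjusted p-values of 1.00 and 0.808 in the moderated test of the difference. For si:dkey-45d16.4 it was 2.24 ± 0.148 in liver, against 1.43 ± 0.131 in gill and 2.37 ± 0.28 in gut. abcc2 differed by 1.01 ± 0.131 in liver, against 1.26 ± 0.143 in gill, where it was called, and 0.26 ± 0.122 in gut. Liver minus gut for abcc2 was 0.75 ± 0.178, with an adjusted p of 0.444 in the moderated test. gclc and gsto1 differed by 0.88 and 0.71 in liver, where neither was called, against 1.28 and 0.91 in gill, where gsto1 alone was called, and 0.52 and 0.64 in gut, where both were called. The median residual SD was 0.310 in liver, against 0.288 in gill and 0.249 in gut.

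**Figure D5:**
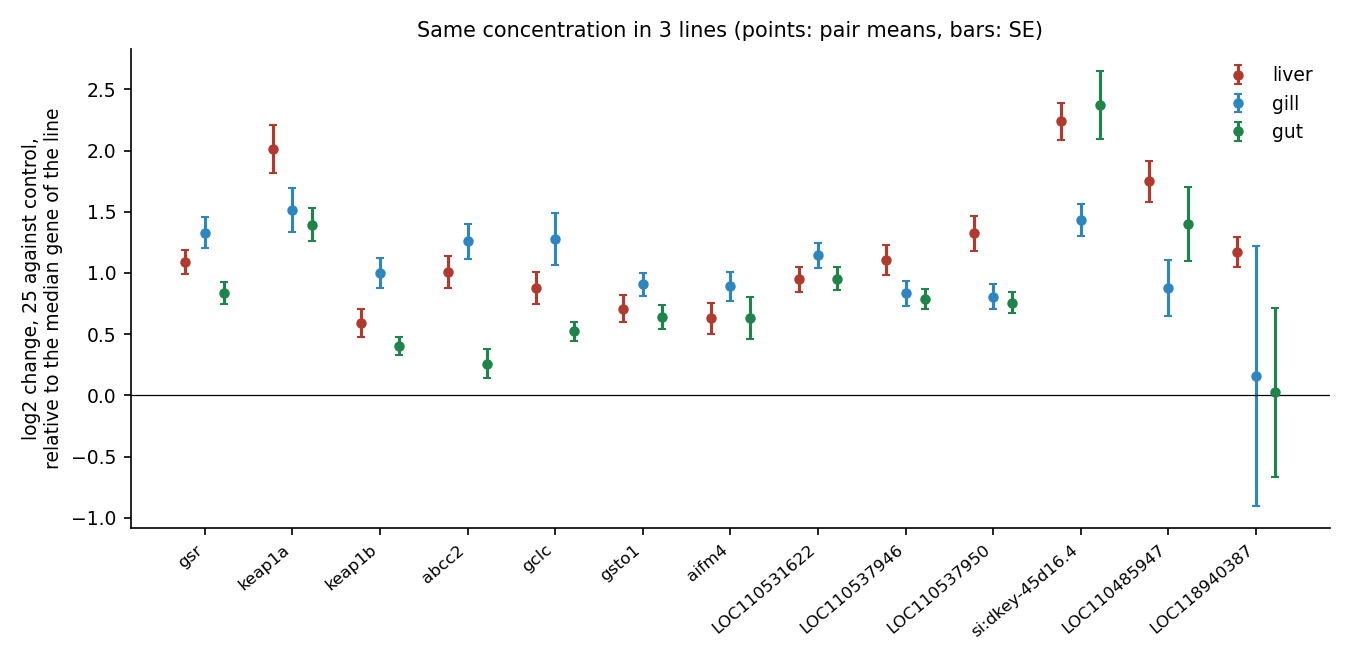
Log2 difference at 25 against the control of the same line, relative to the median gene of that line, in liver (red, left), gill (blue) and gut (green, right). Points are means of 2 libraries and bars are SE. The glutathione genes gsr, gclc, gsto1 and abcc2 lie above 0 in all 3 lines, while LOC118940387 lies near 0 with wide bars in gill and gut.

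A test of the difference itself called 8 of 16083 genes between liver and gill, or 0.0497%, and 2 of 16115 between liver and gut, or 0.0124%. Of these, LOC110505721 was called in liver at a low concentration. rab18a, a small GTPase of membrane traffic, was 0.11 ± 0.112 from control in liver and 1.40 ± 0.11 in gill, a difference of -1.29 ± 0.158 (moderated test, adjusted p = 0.00328). None of the 6 genes called in the 3 lines was called in this test.

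The authors' deposited table of benchmark doses gives, per gene, the concentration at which a fitted curve over all 5 concentrations leaves the control. Only genes marked there as passing all filters were used. Of 3482 liver genes so marked, 9 lay under 0.25, 59 under 2.5 and 1532 under 25. In the authors' deposited table keap1a had a benchmark dose of 0.922 with bounds of 0.224 and 1.79, and LOC110531622 one of 0.913. LOC110537950 had 1.39, LOC110537946 1.44, gsto1 1.59, keap1b 1.92, abcc2 2.39 and gclc 3.20 in the authors' deposited table. These values lie below 25, the lowest concentration at which any of these genes passed the moderated test here, and gsto1, keap1b, abcc2 and gclc did not pass it at 25. Of the genes called at 25 with reads in every low pair, gsr, si:dkey-45d16.4, LOC110485947 and LOC118940387 had no benchmark dose that passed all filters.

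Among genes with a symbol that were marked as passing all filters, the lowest benchmark dose in the authors' deposited table was 0.0287. It belonged to odad4, a docking factor of cilium motors. The log2 level of odad4 was 6.81 in control, 6.25 at 0.25, 6.24 at 2.5 and 5.73 at 25, a difference at 25 of -0.97 ± 0.334 (moderated test, adjusted p = 0.75). lhfpl2a, at 0.597 in the authors' deposited table, had 5.83 estimated reads in control, 3.37 at 0.25 and 0.815 at 2.5, and was listed at 0 at 25. Neither gene was called at a low concentration in the moderated test. By the authors' F-test over all concentrations, 10616 liver genes, or 45.8%, had an adjusted p under 0.05 in the authors' deposited table.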

How the data were processed

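Liver cells were sequenced as duplicate libraries per methylmercury concentration. Per the submitters' processing notes reads were filtered with fastp and quantified with Salmon, and build and versions are not given in the sources used here. The authors deposited log2 fold changes against control and mean log2 expression, p-values and adjusted p-values of a joint test of the 5 concentrations, its F statistic as a score, and benchmark doses as signal values. The columns match limma output, though no tool is named for the test.

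Pair means and the moderated residual variance were recovered from these (7.28 degrees of freedom in liver), and two-sided t and F statistics rebuilt, with Benjamini-Hochberg adjustment over all genes. Reads per library were back-estimated from the pair means with a set offset of 0.5, on which they depend, and no error was attached to them. On data simulated for 25 against control and fitted with limma 3.58.1 in R 4.3.3, over 23203 genes, the rebuilt test called 18% of genes with a true log2 change of 1, 62% at 2, 94% at 4 and 100% at 6. Changed genes, 50 of each size, lay above the 25th percentile of mean expression, with normal noise and no pairs at 0. These rates do not cover genes of low level or listed at 0 in a pair, and may be high where fewer genes change.

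Members, lists and tests were chosen with earlier results of these data known. Named were genes called at a low concentration (for 25 the 15 with the smallest p, and LOC110537946, added after its values were seen), the 15 symbols with the smallest p at 25, the 10 symbols with the lowest benchmark doses, and called or leading list members. Other genes were named after their values were seen, and not every gene under this rule is reported here. Promoter motifs were not searched. Symbols came from the RefSeq gene table of USDA_OmykA_1.1, which matched all 23203 identifiers.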

Additional observations from a re-analysis of the deposited data

Results flagged for a closer look

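LOC110505721, a gene known only by locus number, differed between liver and gill at 25. Liver minus gut was 5.66 ± 1.196 with an adjusted p of 0.453 in the same moderated test, so it was not called. It rose in liver, where it had 25.9 estimated reads at 25 and was listed at 0 in control, and it lay -0.33 ± 0.151 from control in gill. Liver minus gill was 5.87 ± 0.467 on the log2 scale with an adjusted p of 0.00293 in the moderated test of the difference. That size depends on the offset, because the liver control is listed at 0. In liver it was also called at 0.25 and 2.5 against the same control pair.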

How the results depend on the processing

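Of 34 called results of named genes, all 34 were called when centred on the median of the genes above the median level, and 30 of 34 with fold changes as deposited, where LOC118940387, LOC110537950, LOC110531622 and LOC110537946 were not. With the variance raised to at least the median, 13 of 34 were not called. Left among genes at or above the 25th percentile of mean expression, 5 genes were called at 0.25, 4 at 2.5 and 11 over the 4 groups, and 4 differed between liver and gill. With the variance raised, 7 were called at 25, 7 by trend and 5 against the mean of 0.25 and 2.5. As deposited, 6 were called against that mean. With genes listed at 0 in a low pair left out, 1 gene was called at 0.25, 0 at 2.5, 1 at 25, 2 over the 4 groups, 1 by trend and 0 against the mean of 0.25 and 2.5, while 601, 678, 1278, 824, 1172 and 1229 had an unadjusted p under 0.05. In the lines, leaving such genes out left 2 for liver minus gill and 1 for liver minus gut. Fewer genes with very small p-values then enter the adjustment. Over 5 alternatives the adjusted p of gsr at 25 ran from 0.0214 to 1.00. With the mean of 0.25 and 2.5 in place of control, wnk4a was -0.0725 at 25 and adgrv1 3.57, opposite in sign to their values against control, since wnk4a is listed at 0 in control and adgrv1 at 0.25. No paired analysis was possible because only pair means could be recovered, and for the same reason leaving out single replicates, a replicate block, edgeR and DESeq2 were not run. At this depth several calls, among them LOC110513528, LOC110525025 and LOC118962860, rest on under 10 estimated reads per library.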
